A study of Mus musculus with 5 samples.

Results

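The proteins of the cytosolic ribosome were followed as messenger RNAs in single cells of mouse pancreatic islets. The 64 members are drawn from the 6626 genes shared by the 5 deposited files. They are all those with an Rpl or Rps name and a number, plus Rplp0, Rplp1, Rplp2 and Rpsa. A further 20 ribosomal protein names in the non-pregnant file have no shared row and are not members. Kinases, pseudogenes and the ribosomal proteins of mitochondria were left out by the naming rule, and 39 members belong to the large and 25 to the small subunit. Single cells from dissociated islets of C57BL/6 mice were captured by inDrop, a droplet method that counts molecules by unique molecular identifiers (UMIs). The groups were 1 library labelled non-pregnant, 2 labelled pregnant (pregnant 1 and pregnant 2) and 2 labelled postpartum (postpartum 1 and postpartum 2). The labels give no age, day of pregnancy or time after birth, and do not say whether libraries of a group came from separate animals, so p-values measure the spread between these libraries, which may be technical.

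A cytosolic ribosome joins a small subunit, which reads the messenger RNA, and a large subunit, which forms the peptide bonds. Each subunit is built from ribosomal RNA and many small basic proteins that are made in similar amounts, and most of their messenger RNAs begin with a run of pyrimidines through which growth signals control their translation. Islet endocrine cells secrete peptide hormones: insulin from beta cells, glucagon from alpha cells, somatostatin from delta cells and pancreatic polypeptide from gamma cells.

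Cells were classed by the largest of Ins1 plus Ins2, Gcg, Sst and Ppy and are called insulin-led, glucagon-led, somatostatin-led and polypeptide-led. Levels are given as CPM: the UMIs of a gene, pooled over the cells of a class and library, per 1000000 UMIs of the shared genes other than 7 hormones. One molecule gives 1 UMI whatever its length, so levels need no correction for gene length, but near-identical copies of many members, described at the end, leave levels between genes uncertain. Values are given in this order throughout: the non-pregnant library, then pregnant 1 and 2, then postpartum 1 and 2. The libraries held 847, 1993, 164, 557 and 1126 cells and 1313492, 586094, 9593, 55103 and 257036 non-hormone UMIs. Glucagon-led cells carried 20461 to 66383 CPM of the 4 alpha cell markers other than Gcg, against 0 to 3061 CPM in insulin-led cells. Insulin-led cells carried 2798 to 5566 CPM of 5 beta cell markers other than the hormones, against 0 to 945 CPM in glucagon-led cells. Acinar transcripts, the digestive enzymes of the exocrine pancreas, summed to 34.3 to 10617 CPM in insulin-led cells, with pregnant 2 highest.

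Some limits touch most results. The non-pregnant file has another scale, a longer feature list and a greater depth than the other 4 files, so pregnancy state cannot be told apart from file kind wherever the non-pregnant library is compared. In pregnant 2, all 105 member UMIs of the insulin-led cells lay in 28 detections of a gene in a cell, 3.75 UMIs per detection, against 1.07 to 2.51 in the other libraries. There 20 Rps19 UMIs came from 2 of 121 cells, 15 of them from 1 cell, and 45 of the 64 members were at 0. A count of 0 in that library allows up to 436 CPM, at 3 counts, if each count is 1 molecule.

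The starts of the genes were read from RefSeq (GRCm38.p6), which has an entry for 47 of the 64 members in the table used. They are shown because the pyrimidine run at the start is the feature these messenger RNAs are known to share. The lines below give 30 bases, 5′ to 3′ on the strand of the gene, for members that the results turn on. Capitals mark the longest run of at least 8 bases made of C and T only that lies within 40 bases before to 30 bases after the annotated start, and a line without capitals has none. Where runs tie in length, as at Rps27l, the first is marked, and the search cuts runs at its ends. The marked runs of Rps25 and Rps27l, 14 and 9 bases long, begin at base -22 from the annotated start. They end before that start, so they lie outside the annotated transcript. Rpl27a (chr7:109519186-109519215, plus strand) and Rps25 (chr9:44407684-44407713, plus strand) are among the members highest in glucagon-led cells. Rpl13a (chr7:45128722-45128751, minus strand), Rpl41 (chr10:128549154-128549183, minus strand), Rps6 (chr4:86857349-86857378, minus strand) and Rpl12 (chr2:32961697-32961726, plus strand) are described below for their differences between libraries. Rpl22l1 (chr3:28805499-28805528, plus strand) and Rps27l (chr9:66946053-66946082, plus strand) are paralogues.
Rpl27a: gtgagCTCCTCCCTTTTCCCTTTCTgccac
Rps25: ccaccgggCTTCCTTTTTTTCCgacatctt
Rpl13a: cgacaagaCCTCCTCCTTTCCCaggcggct
Rps6: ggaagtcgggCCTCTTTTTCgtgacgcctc
Rpl22l1: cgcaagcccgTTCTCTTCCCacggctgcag
Rps27l: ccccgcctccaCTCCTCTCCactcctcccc
Rpl41: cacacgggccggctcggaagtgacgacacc
Rpl12: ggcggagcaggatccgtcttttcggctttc

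The longest of these runs, 20 bases, is at Rpl27a. Over the whole table, 29 of 47 members (61.7%) had such a run at 1 or more starts, against 29.9% of 27025 genes. A narrower search came first and was widened because it matched few members: it took only runs that came within 5 bases of the start, in 10 bases before to 20 after. It found 17 of 47 members (36.2%) and 10.1% of genes. Only the strand of the gene was searched, and a match is a description of letters, not of a control site.

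The share of non-hormone UMIs taken by the 64 members was compared first. In insulin-led cells it was 5.75%, 4.09%, 1.53%, 1.68% and 2.87% in library order. The exact binomial 95% intervals, which cover counting error only, ran from 5.71% to 5.80% in the non-pregnant library and from 1.25% to 1.85% in pregnant 2. The non-pregnant library was thus highest, pregnant 1 next, and pregnant 2 and postpartum 1 overlapped. Both postpartum values lay between the 2 pregnant values, and 2 against 2 libraries cannot give an exact p under 0.05, so this share was not tested between groups. Depth moved with it: the median insulin-led cell held 1322, 245, 52, 89 and 181 non-hormone UMIs, and the part of depth in the order of the shares was not tested.

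Within each library, the share was higher in glucagon-led than in insulin-led cells. In glucagon-led cells the members took 8.23%, 6.09%, 1.66%, 2.36% and 3.78%, which is 1.43, 1.49, 1.09, 1.41 and 1.32 times the insulin-led share. The geometric mean of the ratios was 1.34-fold (log2 0.42 ± 0.18 SD, n = 5 libraries), higher in 5 of 5 libraries. The two-sided exact paired permutation test gave p = 0.0625, the smallest p that 5 libraries allow. Pregnant 2 had 23 member UMIs in 23 glucagon-led cells, and without it the mean ratio was 1.41-fold (log2 0.50 ± 0.075 SD, n = 4). The depth of the median cell was close in both classes: 1252.5 non-hormone UMIs in glucagon-led against 1322 in insulin-led cells of the non-pregnant library, and 240.0 against 245.0 in pregnant 1. In postpartum 2 it was 248 against 181. Markers of other cell types also differed between the classes. The 11 acinar markers summed to 0 to 294 CPM in glucagon-led cells, against the insulin-led range above, and were lower in glucagon-led cells in each library. The 6 endothelial markers summed to 27.3 to 157 CPM in glucagon-led and 428 to 711 CPM in insulin-led cells of the 4 libraries other than pregnant 2, where all were at 0. The 3 ductal markers summed to 1102 to 2375 CPM in glucagon-led against 508 to 1272 CPM in insulin-led cells of those 4 libraries. The part of these other cell types in the ratio was not tested.

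Single cells showed the same order in the 3 deepest libraries. The median insulin-led cell devoted 5.74% of its non-hormone UMIs to members in the non-pregnant library, with quartiles of 4.46% and 6.89%, against 8.33% (6.76% and 9.88%) in glucagon-led cells. In pregnant 1 the medians were 4.05% and 6.12%, and in postpartum 2 they were 2.53% and 3.36%. The quartile ranges of the classes overlapped in each of these libraries. Cells with no member UMI made up 0.620% of insulin-led cells in pregnant 1, 27.6% in postpartum 1 and 80.2% in pregnant 2.

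Somatostatin-led and polypeptide-led cells were fewer. Somatostatin-led cells had shares of 6.23%, 3.78%, 3.07%, 1.53% and 3.53%, higher than insulin-led cells in 3 of 5 libraries (mean ratio 1.18-fold, exact paired permutation p = 0.375). With hormones in the denominator they were higher in 5 of 5 libraries (1.83-fold), and with cells of at least 80% on the leading hormone also in 5 of 5 (1.32-fold), each with an exact paired permutation p of 0.0625. Without pregnant 2 they were higher in 2 of 4 (1.03-fold). Polypeptide-led cells had 7.29%, 5.39%, 1.40% and 3.04% in the 4 libraries where a member UMI was found, higher in 3 of 4 (mean ratio 1.103-fold, exact paired permutation p = 0.375, where 0.125 is the smallest possible). With hormones in the denominator they were higher in 4 of 4 (1.24-fold, exact paired permutation p = 0.125). With cells of at least 80% on the leading hormone they were higher in 1 of 4 (0.992-fold), and the ratio in pregnant 1 went from 1.32 to 0.919. The 3 polypeptide-led cells of pregnant 2 held 85 non-hormone UMIs and no member UMI.

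**Figure D1:**
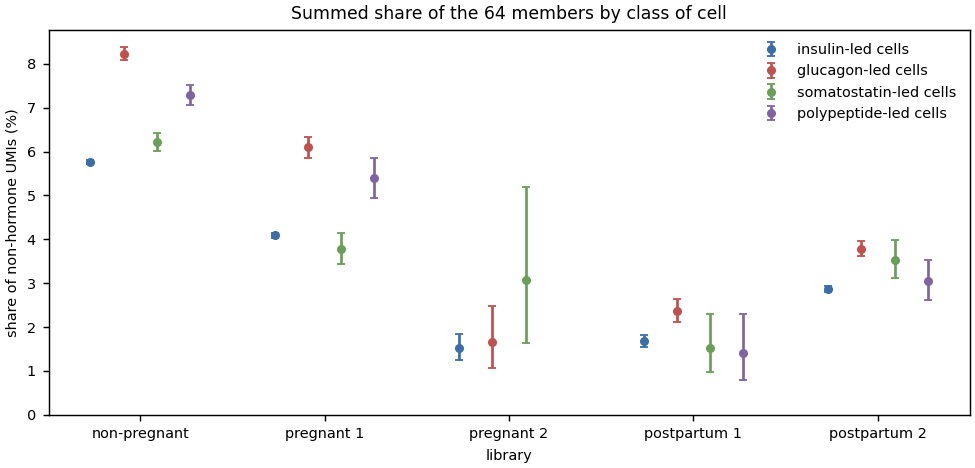
Share of non-hormone UMIs (y axis, %) taken by the 64 members in each library (x axis), with 1 point per class of cell and exact binomial 95% intervals as bars. Glucagon-led points lie above insulin-led points in each library, at 8.23% against 5.75% in the non-pregnant library and 1.66% against 1.53% in pregnant 2, where the intervals overlap.

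Gene by gene, the contrast of glucagon-led with insulin-led cells was fitted with limma across 2468 genes with the library as a block, on log2(CPM + 100), a scale that understates differences of low genes. Of the 64 members, 62 passed the minimum mean level of 100 CPM, and Rpl11 and Rpl7l1 did not. The fit held 14 class samples of 4 libraries, since pregnant 2 had too few UMIs in all classes but one. The median member was 0.40 higher in glucagon-led cells, against −0.09 for all genes tested. Of the 62 members, 53 (85.5%) had a difference above 0, against 41.9% of all genes, and 34 of the 64 were higher in each of the 4 libraries. The medians were 0.45 over 37 large and 0.34 over 25 small subunit members.

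One member, Rpl8, passed a Benjamini-Hochberg adjusted p of 0.05, which is 1.61% of the members tested, against 3.12% of all genes called in either direction and 1.18% called higher. Rpl8, a large subunit protein close to the peptide-forming centre (chromosome 15, 76904078 to 76906314, GENCODE vM21 on GRCm38), stood at 978, 1242, 291, 356 and 649 CPM in insulin-led cells. In glucagon-led cells it was at 1290, 2131, 1339 and 2100 CPM in the libraries other than pregnant 2, where it had no UMI. Glucagon-led cells were thus higher in each of the 4 libraries fitted, and the gap was smallest in the non-pregnant library. The log2 difference was 1.08 ± 0.30 SE (limma, adjusted p = 0.0362). The call was lost when any 1 of the 4 libraries was left out, with adjusted p from 0.0548 without pregnant 1 to 0.427 without postpartum 1, while the difference stayed between 0.88 and 1.32.

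Of the other large differences, 4 that follow were also higher in each of the 4 libraries and did not pass the limma test. Rps25, a small subunit protein used by some viral messenger RNAs to enter the ribosome, was at 974, 451, 127 and 92.8 CPM in insulin-led cells of the non-pregnant, pregnant 1, postpartum 1 and postpartum 2 libraries, and at 1485, 765, 787 and 391 CPM in glucagon-led cells (log2 difference 1.13 ± 0.39 SE, limma adjusted p = 0.133). Rpl27a, a large subunit protein, was at 2148, 552, 330 and 350 CPM in insulin-led and 3885, 1147, 866 and 803 CPM in glucagon-led cells of the same libraries (0.98 ± 0.32 SE, limma adjusted p = 0.107). For both genes the lowest glucagon-led value lay below the highest insulin-led value, since libraries differed more than classes did. Rps15 (0.93 ± 0.31 SE) and Rpl19 (1.01 ± 0.35 SE) had limma adjusted p of 0.124 and 0.141, and Rpl19 rested on 11, 4 and 10 glucagon-led UMIs in pregnant 1, postpartum 1 and postpartum 2.

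Count models on the recovered UMIs called more members, all higher in glucagon-led cells. The quasi-likelihood test of edgeR called 5 of 62: Rpl8, Rps25, Rpl27a, Rps15 and Rpl19 (adjusted p from 0.00271 to 0.0273), against 3.21% of all genes called higher by edgeR. DESeq2 called 10 in all, these 5 with Rpl23, Rplp1 and Rpl13a among the others, against 3.66% of all genes called higher.

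At the other end, 9 members were below 0 and none was called. Rpl36al, a large subunit paralogue of Rpl36a, was lower in glucagon-led cells in 4 of 4 libraries (−0.46 ± 0.37 SE, limma adjusted p = 0.765). Rpl41, the smallest ribosomal protein and the leading member of 3 libraries, was at −0.16 ± 0.27 SE (limma adjusted p = 0.923).

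**Figure D2:**
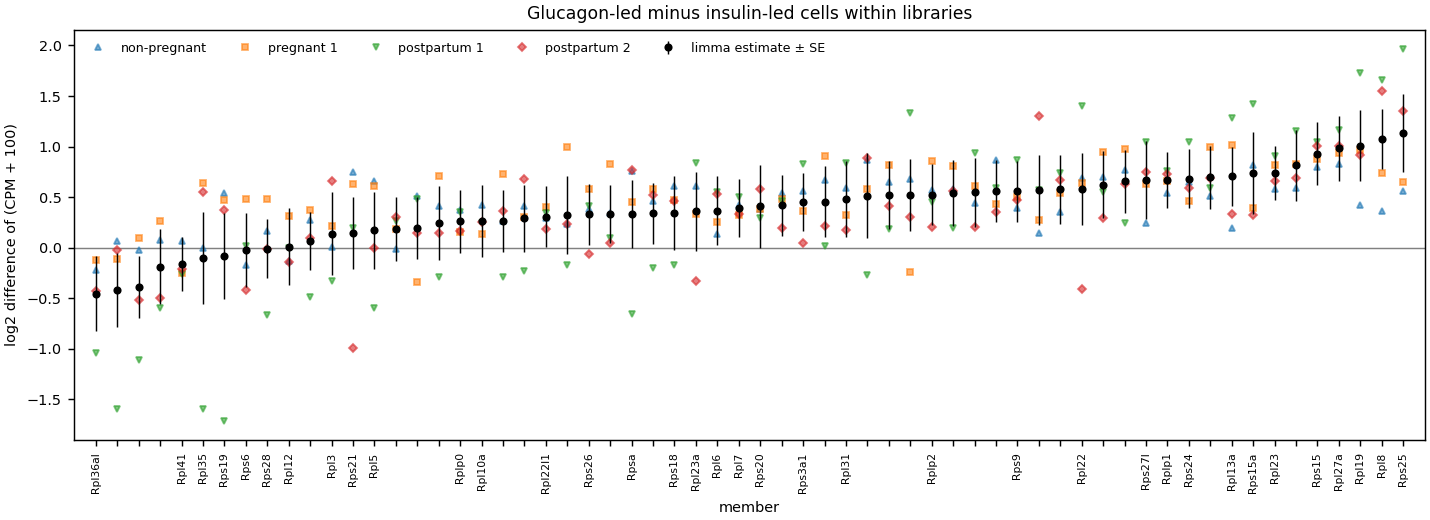
Difference between glucagon-led and insulin-led cells on the log2(CPM + 100) scale (y axis) for the 62 members tested (x axis, in order of size, labelled where the text names them). Black points are limma estimates with SE bars and coloured markers are single libraries. The estimates run from −0.46 at Rpl36al to 1.13 at Rps25, and 53 lie above 0.

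Somatostatin-led and polypeptide-led cells gave no call among the members. In somatostatin-led cells the median member was −0.0145 and 26 of 62 members were above 0 (41.9%), against 41.4% of all genes. The limma test called 2.84% of all genes and no member, edgeR 3.9% and DESeq2 3.01% of all genes and no member, and 2 members had an unadjusted limma p under 0.05, against 13.9% of all genes. In polypeptide-led cells the median was 0.20 and 41 of 62 were above 0 (66.1%), against 41.5% of all genes. There the limma test called 3.53%, edgeR 4.23% and DESeq2 3.29% of all genes, each with no member, and 5 members had an unadjusted limma p under 0.05, against 16.6% of all genes. When only cells with at least 80% of their hormone UMIs on the leading hormone were kept, the polypeptide-led median turned to −0.32.

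The other genes of translation did not share a call in glucagon-led cells. None of the 20 tested translation factors, 7 assembly factors, 6 genes of growth control, 2 genes of ribosome rescue and 5 mitochondrial ribosomal proteins was called. Their median differences were 0.15, −0.0064, −0.31, −0.18 and 0.0087, against 0.40 for the members and −0.09 for all genes.

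Between members, levels differed most by which file they came from. In insulin-led cells of the non-pregnant library the 5 leading members were Rpl27a, Rps21, Rps3a1, Rps28 and Rps24, and the highest, Rpl27a, took 3.73% of member UMIs. Rpl41 led in pregnant 1 (10.5% of member UMIs), postpartum 1 (7.41%) and postpartum 2 (11.6%). The order of the 64 members was alike among these 3 libraries, with Spearman's rho of 0.85 between pregnant 1 and postpartum 1, 0.80 between pregnant 1 and postpartum 2 and 0.75 between postpartum 1 and postpartum 2. Against the non-pregnant library rho was 0.31 for pregnant 1, 0.25 for postpartum 1 and 0.18 for postpartum 2. Pregnant 2, with 105 member UMIs, had rho of 0.44, 0.39 and 0.43 with those 3 libraries and 0.24 with the non-pregnant library. These are descriptions over genes that share a library, not tests. Large subunit members held 51.8% of member UMIs in the non-pregnant library and 61.4%, 62.3% and 61.4% in pregnant 1, postpartum 1 and postpartum 2. Among them, Rpl41 and Rpl13a alone held 0.506% and 0.115% of member UMIs in the non-pregnant library. In pregnant 1 these 2 genes held 10.5% and 5.73%, in postpartum 1 7.41% and 2.72%, and in postpartum 2 11.6% and 4.90%. In pregnant 2 large subunit members held 40% of 105 UMIs (exact binomial 95% interval 30.6% to 50.02%). That interval takes each UMI as independent, but these UMIs lay in 28 detections of a gene in a cell. Among the small subunit members, Rps19 held 20 UMIs from 2 cells and Rps9 16 UMIs from 3 cells. The value rests on few cells and does not place pregnant 2 below the other libraries.

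**Figure D3:**
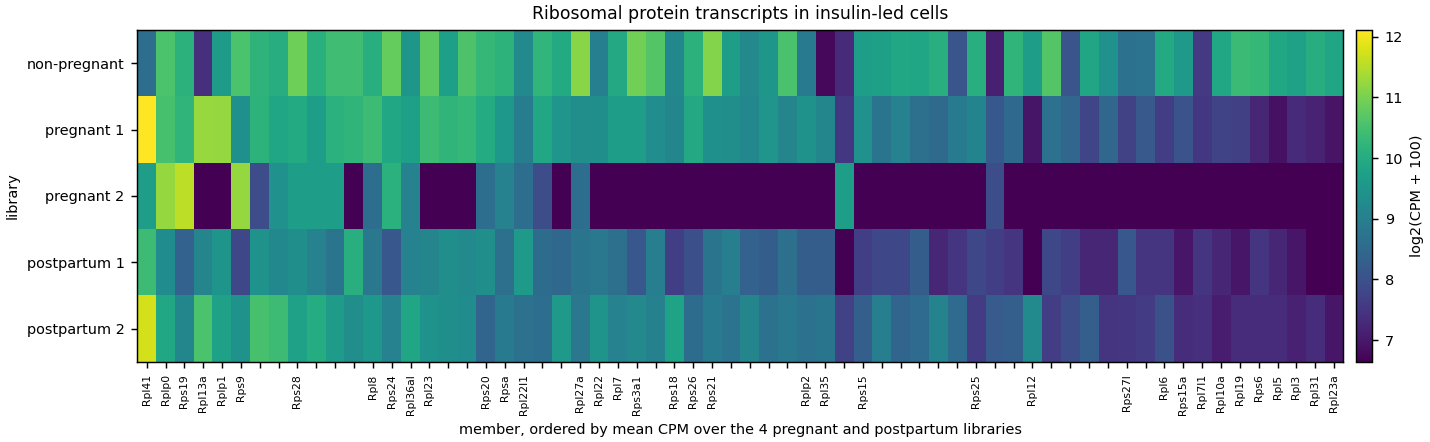
Level of each member in insulin-led cells as log2(CPM + 100) (colour) in the 5 libraries (y axis), with the 64 members (x axis, labelled where the text names them) ordered by their mean over the pregnant and postpartum libraries. Rpl41 and Rpl13a are high in pregnant 1 and postpartum 2 and low in the non-pregnant library, and pregnant 2 shows 45 members at 0.

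The 6 members with the highest mean over the 5 libraries were Rpl41, Rplp0, Rps19, Rps9, Rps28 and Rplp1. Rpl41 was at 291, 4306, 727, 1245 and 3329 CPM, so that the non-pregnant library was lowest. Rplp0, the base of the stalk that recruits elongation factors, was at 1408, 1363, 2327, 534 and 855 CPM, highest in pregnant 2, where 16 UMIs came from 3 cells. Its partners at the tip of the stalk were at 694, 2304, 0, 610 and 778 CPM (Rplp1) and at 373, 587, 0, 203 and 309 CPM (Rplp2), and both were highest in pregnant 1. Rps19, a small subunit protein mutated in Diamond-Blackfan anaemia, was at 1038, 1099, 2909, 229 and 469 CPM. Its highest value is the one from 2 cells of pregnant 2. Rps9 was at 1417, 569, 2327, 127 and 598 CPM, with the pregnant 2 value from 16 UMIs in 3 cells. Without pregnant 2 the means of Rps19 and Rps9 were 709 and 678 CPM, and both left the 6 highest, while Rpl13a, at 1068 CPM, entered them. Rps28 was at 1797, 914, 727, 559 and 773 CPM. Rpsa, a small subunit protein also known as a laminin receptor, was at 1051, 653, 436, 305 and 371 CPM.

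Paralogues were measured for a few members. Rpl22 was at 414, 560, 0, 356 and 608 CPM and Rpl22l1 at 507, 388, 291, 661 and 314 CPM, so neither led in all libraries. Rpl7 stood at 877, 724, 0, 305 and 438 CPM, above Rpl7l1 at 87.3, 85.7, 0, 76.2 and 67.0 CPM in the 4 libraries where either was found. Rps27l, which p53 is known to induce, was at 314, 107, 0, 178 and 82.5 CPM.

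Postpartum and pregnant libraries were compared to ask whether members change after birth. With all 5 libraries in 1 fit, no member of 63 tested was called, against 0.0907% of 2205 genes. The median member was 0.27 higher postpartum and the median gene 0.55 higher. Of the members 1 had an unadjusted limma p under 0.05, against 3.95% of all genes. No member was called by edgeR (0% of all genes) or DESeq2 (0.227%), and none had an unadjusted p under 0.05 by either, against 1.32% and 5.6% of all genes. The limma prior had infinite weight against 2 residual degrees of freedom, so the error came from the trend over genes. On simulated data of the same depth, this fit recovered 24.6% of 199 genes changed 4-fold. The simulation drew independent random (Poisson) counts with a set spread between libraries and no clumped counts like those of pregnant 2. Its recovery is therefore not that of these data.

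Leaving out single libraries changed this comparison. Without pregnant 2 the median member was 0.61 lower postpartum, 56 of 62 (90.3%) were below 0 against 52.2% of all genes, and 3 were called, all lower, against 2.27% of all genes called and 0.81% called lower. The 3 were Rps26 (−1.66), Rplp1 (−1.61) and Rps19 (−1.47), with limma adjusted p of 0.0124, 0.0215 and 0.0450. Without pregnant 1, which leaves only pregnant 2 in its group, 41 of 63 members were called, 36 higher and 5 lower, against 82.9% of all genes called and 62.8% called higher. The members' share, 65.1%, lay below that of all genes. In both fits the lone pregnant library was assumed to vary like the others.

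The better covered libraries of the 2 groups, pregnant 1 and postpartum 2, were set side by side with no test. Rpl12, a protein of the stalk base, was at 24.8 CPM from 13 UMIs in pregnant 1 and at 510 CPM from 99 UMIs in postpartum 2, with 0 UMIs in postpartum 1. The count of 0 in postpartum 1 allows up to 76.2 CPM, so it does not place that library above or below pregnant 1. Rps18 followed, with a difference of 0.66 on the log2(CPM + 100) scale. The largest differences in the other direction were Rps20 (−1.58), Rps25 (−1.52), Rplp1 (−1.45) and Rps26 (−1.36). Rps26 was at 882 CPM in pregnant 1 and at 152 and 283 CPM in postpartum 1 and postpartum 2. Rplp1 was at 2304 CPM against 610 and 778 CPM.

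**Figure D4:**
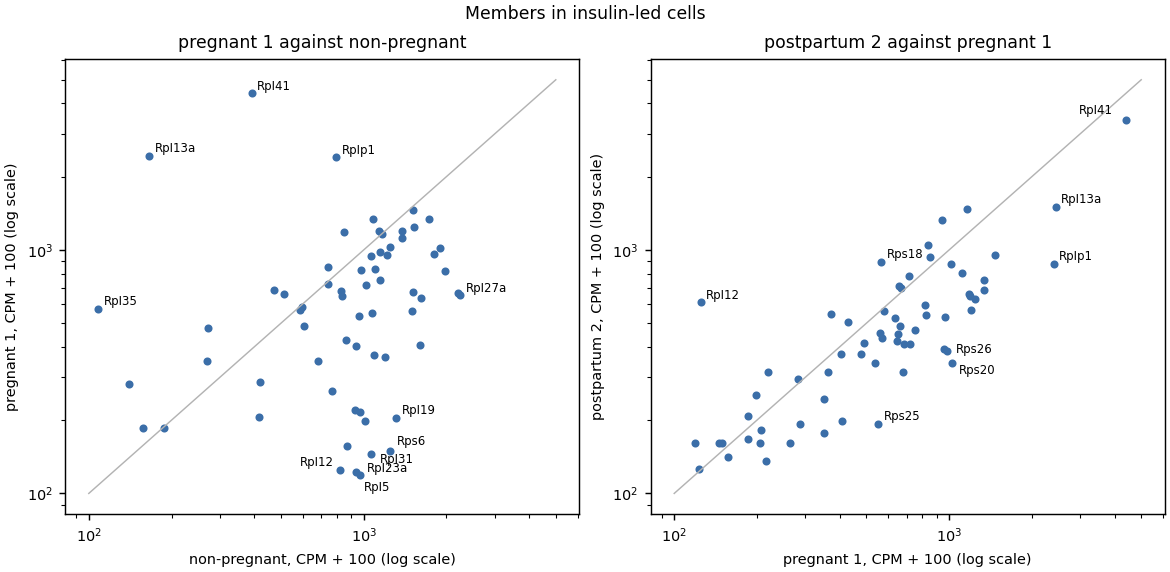
Levels of the 64 members in insulin-led cells, as CPM + 100 on log axes, for pregnant 1 against the non-pregnant library (left) and postpartum 2 against pregnant 1 (right). The grey line marks equal levels. On the left Rpl41, Rpl13a and Rpl35 lie above the line and Rps6, Rpl5, Rpl23a and Rpl31 far below it, and on the right Rpl12 stands apart at 24.8 against 510 CPM.

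Against the non-pregnant library, 56 of 63 members had a difference below 0 in pregnant and 58 of 63 in postpartum cells, against 72.7% and 51% of all genes, in a comparison in which state and file kind cannot be told apart. In the fit of all libraries no member was called in pregnant or in postpartum cells, against 0% and 0.181% of all genes. The median member was at −1.67 in pregnant and −1.39 in postpartum cells, and the median gene at −0.57 and −0.01. By limma 13 and 9 members had an unadjusted p under 0.05, against 1.77% of all genes in each contrast. By edgeR 5 and 2 members did, against 1% and 0.91% of all genes, and by DESeq2 10 and 11, against 3.5% and 3.23%. Neither count model called a member, against 0% of all genes in both contrasts by edgeR and 0.227% and 0.455% by DESeq2. Both contrasts use the same non-pregnant library.

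Without pregnant 2 the fit sets 1 pregnant against 1 non-pregnant library, and 2 postpartum libraries against the same one. The residual spread then comes from the 2 postpartum libraries alone (1 residual degree of freedom, with a prior of infinite weight), and the lone libraries were assumed to vary like them. In that fit, 17 members were called in pregnant cells (3 higher and 14 lower, 27.4% of 62, against 1.94% of all genes, 0.77% higher and 1.17% lower) and 36 in postpartum cells (3 higher and 33 lower, 58.1%, against 6.24%, 2.67% higher and 3.56% lower). Without pregnant 1 instead, 52 of 63 members were called in pregnant cells (3 higher and 49 lower), against 75.1% of all genes called and 55.2% called lower, and 38 of 63 in postpartum cells (3 higher and 35 lower), against 7.75% and 4.28%. Without pregnant 2 the 3 higher members were the same in both contrasts: Rpl13a, Rpl41 and Rpl35. Rpl13a, a large subunit protein also known for silencing inflammatory transcripts, was at 66.2 CPM in the non-pregnant library and at 2342, 457 and 1407 CPM in pregnant 1, postpartum 1 and postpartum 2. Rpl35 was at 8.28 CPM from 9 UMIs in the non-pregnant library and at 472, 203 and 335 CPM in these 3. Both were higher in each of the 3 libraries than in the non-pregnant one. In pregnant 2 both were at 0, which allows up to 436 CPM and does not place that library above or below the non-pregnant one.

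The 9 members with the largest drop in pregnant 1 against the non-pregnant library, all called without pregnant 2, were Rps6, Rpl5, Rpl23a, Rpl31, Rpl12, Rpl19, Rpl3, Rpl6 and Rpl10a, with log2 differences from −3.05 to −2.16. In postpartum cells the 10 largest ran from −3.21 at Rpl19 to −2.36 at Rps25. Rps6, the small subunit protein phosphorylated by S6 kinase, was at 1142 CPM in the non-pregnant library and at 49.5, 76.2 and 61.8 CPM in pregnant 1, postpartum 1 and postpartum 2. Rpl5, which carries 5S ribosomal RNA and binds Mdm2, was at 871 CPM and at 19.04, 50.8 and 61.8 CPM. The non-pregnant library was above the others for both. Fau, a ribosomal protein made as a fusion to a ubiquitin-like protein and outside the naming rule, was also called higher in both contrasts without pregnant 2, with log2 differences of 2.42 ± 0.51 SE in pregnant and 2.03 ± 0.44 SE in postpartum cells. Tpt1, a translation-linked gene with a pyrimidine start, was at 4842 CPM and at 39.99, 25.4 and 20.6 CPM, and was the one gene of these lists called in the fit of all libraries (postpartum against non-pregnant, −5.33 ± 1.33 SE, limma adjusted p = 0.0341).

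Many of these genes have near-identical copies. The last 200 bases of the transcripts of 51 of the 64 members matched another gene of GENCODE vM21 over at least 110 bases at 95% identity or more. With the minimum of 100 bases tried first, 52 did. The minimum was raised after the hits had been seen. How the authors' counting split reads between such copies is not given in the sources used here, so the levels of these members are uncertain. Rps6 has 13 such copies, and 1 of them, Rps6-ps4, has a row of its own in the pregnant and postpartum files. Over all cells Rps6-ps4 stood at 1135, 1459, 671 and 385 CPM in pregnant 1, pregnant 2, postpartum 1 and postpartum 2. Rps6 and this copy together reached 1188, 1459, 744 and 440 CPM in these libraries. The pregnant 2 value came from 14 UMIs of the copy. Rps6 alone in the non-pregnant library was at 1139.7 CPM over all cells, above the sum in both postpartum libraries. Rps15a and Rps15a-ps6 together were at 734, 436 and 626 CPM in pregnant 1, postpartum 1 and postpartum 2, of which Rps15a alone was 164, 72.6 and 70.0 CPM. Rpl12, with no such copy, had a difference of −2.71 between pregnant 1 and the non-pregnant library. The median difference of pregnant 1 from the non-pregnant library was −0.37 over the 51 members with a copy by this search and −0.51 over the other 13. The search misses some copies. Rpl37rt and Rpl14-ps1, named after members among the 13, held 347 and 154 UMIs in pregnant 1. The split therefore does not set apart members free of copies.

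**Figure D5:**
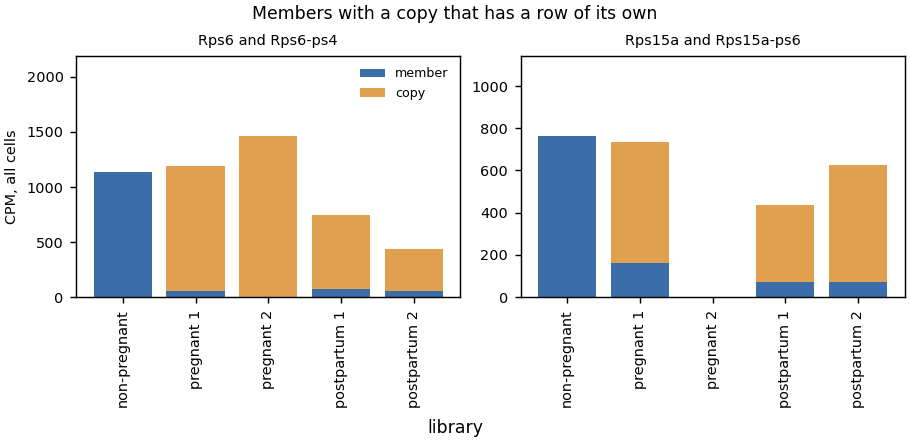
Level over all cells (y axis, CPM) of 2 members (blue) and of a near-identical copy of each (orange) by library (x axis). The copies have rows only in the pregnant and postpartum files. The non-pregnant bars therefore show the member alone, and the copy was not measured there. For Rps6 the copy makes up most of the sum in pregnant 1, 1135 of 1188 CPM. The sum is lower in postpartum 1 and postpartum 2, at 744 and 440 CPM. The member alone stands at 1139.7 CPM in the non-pregnant library.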

How the data were processed

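Polyadenylated RNA of single cells from 5 islet libraries was counted by inDrop, per the labels. Per the submitters' processing notes the tools were Partek 8.0 and Bowtie 1.1.1 and the builds GRCm38 and mm10; no role is given for any of them, and annotation and counting rules are unstated there. For non-pregnant cells the authors deposited a linear signal, 3023.99 in sum for each cell, over 40930 features. The authors deposited the other 4 files as log2(CPM + 1), over 6695 features. These were back-transformed, and UMIs were recovered per cell as whole multiples of the smallest value or of that value divided by a whole number. The divisor was the first to bring all values of a cell within 0.1 of a whole number. That limit is therefore a setting and not a check. The largest deviation was 0.025, in postpartum 2. In 9 cells of pregnant 2 the smallest value stood for more than 1 UMI. Of the shared genes, 6543 were matched by symbol and 83 by synonym. Cells were not filtered and no doublets were removed. Cell columns carry numbers only, so barcodes shared between libraries could not be counted.

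UMIs were pooled per library and class and tested with limma 3.58.1 (R 4.3.3, trended prior) on log2(CPM + 100) for genes whose mean reached 100 CPM, with Benjamini-Hochberg adjustment over all genes, two-sided. Class samples had at least 10 cells and 2000 non-hormone UMIs. Alternatives were edgeR 4.0.16, DESeq2 1.42.0, other pseudocounts, filters, denominators and cell sets, and leaving out each library. The fits were tested on simulated data: the class fit recovered 86% of 200 genes changed 4-fold and called no unchanged gene. Those data had Poisson counts and a set spread between libraries, so these figures hold for that setting only. Copies were found with BLAST+ 2.17.0. Named members were those called in a contrast (10 per direction), the 6 highest, the 5 largest and 5 smallest differences of postpartum 2 from pregnant 1, the stalk proteins, Rpsa, Rps6 and paralogues; members whose sequences are shown or that only the count models called were chosen after their values were seen. Some members and 1 related gene are not reported by name here. The members, lists, tests and main setting were chosen with earlier results of these data known. The search for pyrimidine runs, the aligned length for copies and 1 restriction of the share to well covered classes were chosen after seeing the data.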

Additional observations from a re-analysis of the deposited data

Results flagged for a closer look

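Signal was found in ribosomal rows that the comparisons do not use, above what a count of 0 allows. In pregnant 1 the rows of copies or near copies in the pregnant and postpartum files held 665 UMIs for Rps6-ps4, 347 for Rpl37rt, 334 for Rps15a-ps6, 292 for Rpl32l, 154 for Rpl14-ps1 and 37 for Rps4l. In the non-pregnant library, 20 ribosomal protein names with no shared row, Rps23 (4649 UMIs) and Rps29 (3347 UMIs) among them, held 20855 UMIs, equal to 1.59% of the non-hormone UMIs of the shared genes there.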

How the results depend on the processing

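Other settings moved counts of called members as follows. The single calls given below for polypeptide-led cells and for postpartum against non-pregnant have no share of all genes beside them. They are not read as results about the members. In glucagon-led cells the 1 call became 0 with a pseudocount of 10 CPM, with no filter on low genes, with cells of at least 80% on 1 hormone and with no minimum of UMIs, 5 with edgeR and 10 with DESeq2, and 0 to 1 when libraries were left out. The median there was 0.51 and 0.17 with pseudocounts of 10 and 1000 CPM, 0.62 with edgeR, 0.59 with DESeq2 and 0.30 with no minimum of UMIs. The somatostatin-led median was 0.37 with hormones in the denominator and −0.27 with no minimum of UMIs. The polypeptide-led median was −0.32 with purer cells, where 1 member was called, −0.17 with no minimum of UMIs and 0.032 to 0.21 when libraries were left out. For postpartum against pregnant the median was 1.33 with a pseudocount of 10 CPM, and leaving out libraries gave 0 to 41 calls (the 41 without pregnant 1, against 82.9% of all genes) and medians from −0.61 to 1.15. For pregnant against non-pregnant the median was −3.25 and −0.50 with pseudocounts of 10 and 1000 CPM, and leaving out libraries gave 0 to 52 calls (the 52 without pregnant 1, 49 of them lower, against 75.1% of all genes called) and medians from −2.94 to −0.45. For postpartum against non-pregnant 1 member was called with a pseudocount of 1000 CPM and 1 with hormones in the denominator, and leaving out libraries gave 0 to 38 calls (the 38 without pregnant 1, 35 of them lower, against 7.75% of all genes called). With hormones in the denominator the insulin-led shares were 3.49%, 2.21%, 0.949%, 0.670% and 0.992% in library order, the somatostatin-led log2 ratio 0.87, and with purer cells the non-pregnant share was 5.62%. The cause of these shifts was not tested. A replicate block on the label numbers of the pregnant and postpartum libraries gave 0 members called and a median of 0.34; the deviations of same-numbered libraries correlated at 0.0062 over 2205 genes, so the numbers were not shown to pair the libraries. Depth limits pregnant 2 and postpartum 1 most, where 3 counts equal 436 and 76.2 CPM in insulin-led cells.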

Other observations

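Members with a pyrimidine run near the annotated start, before or after it, and members without one were set beside each other, as a description with no test. The median difference of glucagon-led from insulin-led cells was 0.50 over 28 tested members with a run and 0.33 over 17 without, on the log2(CPM + 100) scale. With the narrower search the medians were 0.56 over 17 members and 0.33 over 28.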
